A study of Danio rerio with 96 samples.

Results

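A set of 4 zebrafish genes, here named cell cycle brakes of the p53 pathway, was followed in single larvae. The larvae received X-ray irradiation (XR), folic acid (FA), both or neither. The name is a label, and a shared function of the 4 genes was not tested. The genes were *cdkn1a* (ENSDARG00000076554), *ccng1* (ENSDARG00000076667), *sesn3* (ENSDARG00000015822) and *plk3* (ENSDARG00000038754), which are 4 of the 25907 genes in the count table. They were chosen by name, with their irradiation differences in these same libraries already known. Differences of these 4 genes between irradiated and unirradiated larvae are therefore a description, and where the fit puts one past its threshold nothing is read from it. The 4 genes were tested for FA at equal irradiation and for age in control larvae. Their interaction of FA and XR is given as a description. Other genes were also tested for irradiation. The lists of other genes were likewise written with earlier results of these data known. All larvae came from an albino line (slc45a2 b4/b4) that lacks melanin, and 1 whole larva gave 1 library. There were 4 groups of 6 larvae at each of 36, 37, 60 and 84 h post-fertilization (hpf), 96 libraries in all. FA + XR larvae received 200 µM FA from 35 hpf and 8 Gy of X-rays at 36 hpf, XR larvae received the X-rays without FA, FA larvae received FA without X-rays, and Cont larvae received the solvent and no X-rays. The 37, 60 and 84 hpf samples were thus taken 1, 24 and 48 h after irradiation, and the sources used here do not say whether the 36 hpf larvae were taken before or after it. Each group was kept in its own well, so that a difference between wells cannot be told apart from the treatment, and p values measure the spread between larvae.

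When DNA is broken, p53 is stabilized and switches on genes that hold the cell cycle, repair DNA or lead to cell death, and it also switches on its own inhibitor, *mdm2*. In mammals, *cdkn1a* encodes p21, an inhibitor of cyclin-dependent kinases (CDKs) that holds cells before DNA synthesis. *ccng1* encodes cyclin G1, which recruits a phosphatase to MDM2 and so feeds back on p53. *sesn3* encodes a sestrin, a stress protein that restrains the growth kinase complex TORC1, and *plk3* encodes a polo-like kinase of the stress response.

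The levels of the 4 genes lay far apart in counts, and with them the precision of each value. *ccng1* had between 147 and 26750 counts in a library, *plk3* between 20 and 843, *sesn3* between 11 and 635, and *cdkn1a* between 0 and 24. Levels are given as CPM, scaled to each library's own total count, and since they are not corrected for transcript length they are not compared between genes. Over the 16 groups, the SD between larvae was 4.54% to 14.8% of the mean for *ccng1*, 4.54% to 23.7% for *plk3*, 12.6% to 54.6% for *sesn3* and 38.3% to 245% for *cdkn1a*. In whole larvae, fewer cells of a type and less RNA per cell cannot be told apart.

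Library totals spanned 1985483 to 10094251 counts in the 36 hpf larvae, 243126 to 10769522 in those of 37 hpf, 767872 to 16470291 in those of 60 hpf and 423265 to 8530530 in those of 84 hpf, and 13 libraries lay under 50% of the median of their age. One FA + XR library of 37 hpf, with 243126 counts, stood apart, and its normalization factor by the trimmed mean of M values (TMM) was 2.07, where the other groups' highest factor at that age was 1.25. At 60 hpf the TMM factors of the FA libraries, 0.581 to 1.05 with a mean of 0.855, lay lower than those of the Cont libraries, 0.848 to 1.22 with a mean of 1.08. The lowest FA factors, 0.581 and 0.621, were those of the libraries of 5295573 and 2586967 counts. The other FA libraries of that age lay at 0.912 to 1.05. Fold changes below rest on TMM, and values from library totals alone are given where the choice matters. Markers of whole-body tissues matched 19 IDs, and all were detected in every group except one TNNT2 ID, which had no counts in FA larvae at 37 hpf and in Cont larvae at 36 hpf. The summed marker level at 60 hpf was 27066 to 33119 CPM in FA + XR larvae, 24950 to 28090 CPM in XR larvae, 25133 to 28914 CPM in FA larvae and 25302 to 27517 CPM in Cont larvae. At 60 hpf, CRYBB1 was called higher in FA + XR against FA larvae, and CRYBB1 and hbae3 were called in FA against Cont larvae, 1 higher and 1 lower. At 84 hpf, NEUROD1, krt4 and ACTA1 were called in both irradiation contrasts, 2 of them higher and 1 lower, and their part in the results was not tested.

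**Figure D1:**
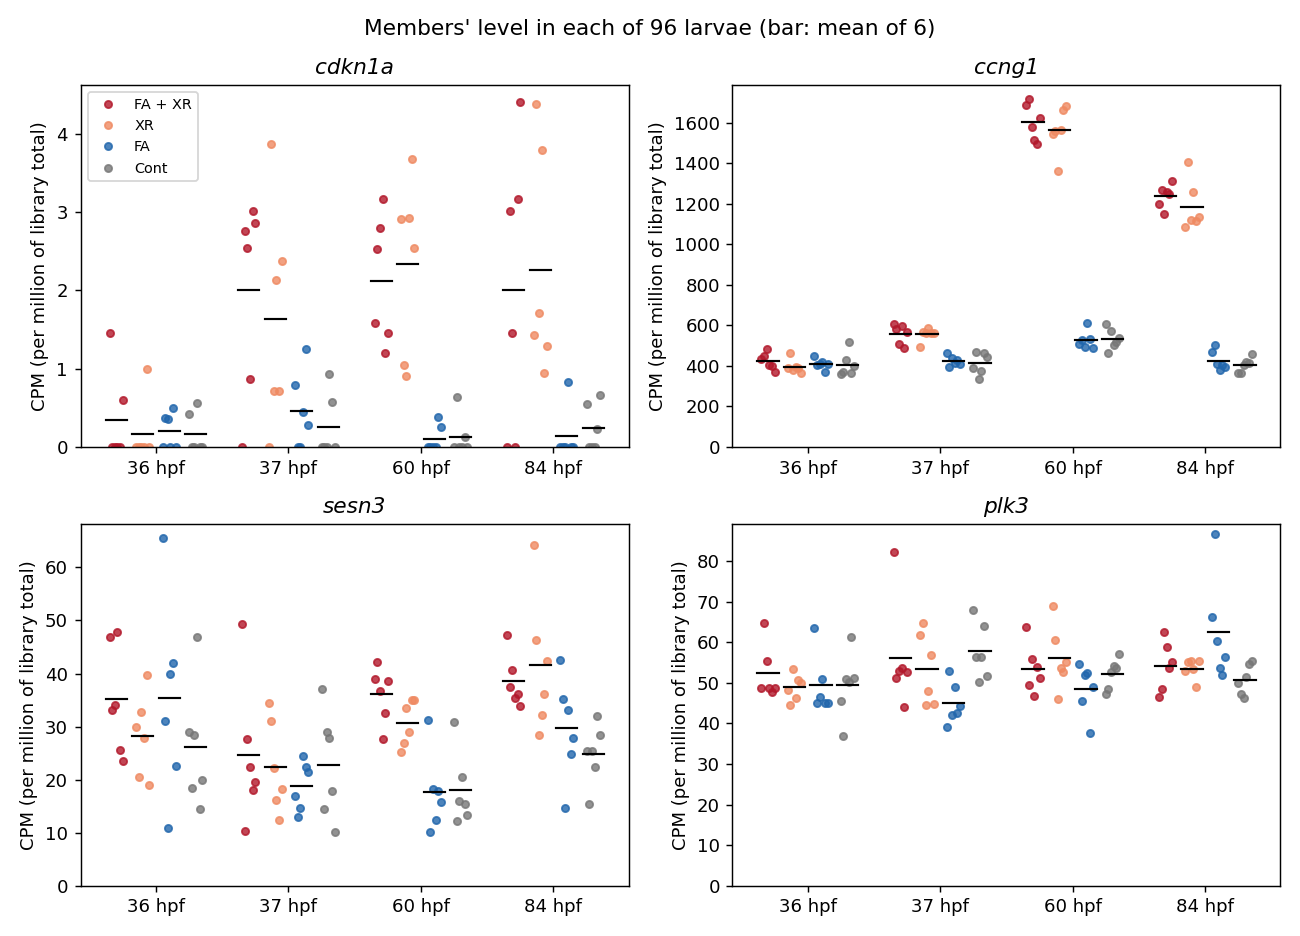
Level of each gene in each of the 96 larvae, in CPM of the library total on a linear axis from 0, by age and group (FA + XR, XR, FA and Cont from left to right). Points are larvae and bars are the mean of 6. *ccng1* in irradiated larvae lay at 1361 CPM or more at 60 hpf, against 609 CPM or less in unirradiated larvae, while *plk3* overlapped between all groups.

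*cdkn1a* was close to silent in unirradiated larvae and detectable in most irradiated larvae. At 60 hpf it ranged from 1.199 to 3.16 CPM with a median of 2.05 in FA + XR larvae and from 0.912 to 3.68 CPM with a median of 2.73 in XR larvae. In FA larvae of that age it ranged from 0 to 0.378 CPM with a median of 0, and in Cont larvae from 0 to 0.638 CPM with a median of 0. The 12 irradiated larvae of 60 hpf thus all lay above the 12 unirradiated ones.

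The counts behind this contrast were few. At 60 hpf all 6 FA + XR larvae held a count, 73 in sum, and all 6 XR larvae, 45 in sum. Only 2 of 6 FA larvae held any, 6 in sum, and only 2 of 6 Cont larvae, 2 in sum. The summed counts per summed total were 9.53 times higher in FA + XR than in FA larvae (95% Poisson interval 4.17 to 26.8) and 30.3 times higher in XR than in Cont larvae (7.90 to 257). These intervals cover counting error only.

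At 37 hpf, *cdkn1a* had a median of 2.66 CPM (0 to 3.01) in FA + XR larvae, 1.43 CPM (0 to 3.88) in XR larvae, 0.363 CPM (0 to 1.25) in FA larvae and 0 CPM (0 to 0.937) in Cont larvae. Here 1 larva of each irradiated group held no count, so the groups overlapped. In FA + XR this was the library of 243126 counts. A single count there would lie above the highest CPM of its group, so its zero says little about the level. The ratio of summed counts was 5.05 (2.78 to 9.71) for FA + XR over FA larvae and 5.96 (2.35 to 19.4) for XR over Cont larvae. At 84 hpf the median was 2.23 CPM (0 to 4.41) in FA + XR larvae, 1.57 CPM (0.944 to 4.39) in XR larvae, 0 CPM (0 to 0.835) in FA larvae and 0.113 CPM (0 to 0.664) in Cont larvae. XR and Cont larvae did not overlap at this age, while 2 of the 6 FA + XR larvae held no count. The ratio of summed counts was 13.8 (4.41 to 69.5) for FA + XR over FA larvae, where the FA sum was 3 counts of 1 library, and 7.86 (3.48 to 20.8) for XR over Cont larvae.

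In the fit, the log2 fold change of *cdkn1a* in FA + XR against FA larvae was 2.15 ± 0.76 (SE, n = 6 each) at 37 hpf and 3.18 ± 0.76 at 60 hpf, and it was 3.41 ± 1.04 at 84 hpf. In XR against Cont larvae it was 2.36 ± 0.90, 4.31 ± 0.87 and 3.01 ± 0.88 at the same ages. These fitted values rest on few counts in unirradiated larvae. Without the FA library of 3591337 counts, which held all 3 counts of its group at 84 hpf, the value was 5.90, and without the Cont library of 1566669 counts the 60 hpf value in XR against Cont larvae was 5.02. At 36 hpf the gene held 10, 5, 4 and 3 counts in sum in FA + XR, XR, FA and Cont larvae and lay under the mean count of 2.5 required of a gene, a filter it passed at the later ages through the irradiated larvae.

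*ccng1* was the most abundant of the 4 genes in counts and had the smallest spread between larvae. At 36 hpf it lay at 418 CPM (median; 370 to 486) in FA + XR larvae, 388 CPM (365 to 462) in XR larvae, 410 CPM (370 to 446) in FA larvae and 383 CPM (360 to 516) in Cont larvae, and all groups overlapped. At 37 hpf, FA + XR larvae had 574 CPM (490 to 605), XR larvae 562 CPM (492 to 588), FA larvae 422 CPM (396 to 466) and Cont larvae 417 CPM (336 to 466). The 12 irradiated larvae of 37 hpf lay above the 12 unirradiated ones on this scale, and they overlapped once CPM was scaled by TMM factors.

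At 60 hpf the median of *ccng1* was 1602 CPM (1494 to 1717) in FA + XR larvae, 1562 CPM (1361 to 1680) in XR larvae, 517 CPM (486 to 609) in FA larvae and 527 CPM (461 to 606) in Cont larvae. At 84 hpf it was 1253 CPM (1151 to 1311) in FA + XR larvae, 1127 CPM (1088 to 1404) in XR larvae, 405 CPM (380 to 503) in FA larvae and 411 CPM (364 to 456) in Cont larvae. No irradiated larva overlapped with an unirradiated one at 60 or 84 hpf under either scaling. The group means at 60 hpf, 1603 ± 89.998 CPM in FA + XR larvae and 1563 ± 114 CPM in XR larvae against 526 ± 44.5 CPM in FA larvae and 532 ± 51.1 CPM in Cont larvae (SD, n = 6 each), fell into an upper and a lower pair, and within each pair the means lay closer than 1 SD.

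The log2 fold change of *ccng1* in FA + XR against FA larvae was 0.00 ± 0.10 (SE) at 36 hpf, 0.26 ± 0.17 at 37 hpf, 1.25 ± 0.16 at 60 hpf and 1.67 ± 0.10 at 84 hpf. In XR against Cont larvae it was 0.15 ± 0.10, 0.52 ± 0.17, 1.54 ± 0.16 and 1.55 ± 0.10. In a separate fit of all 96 libraries, whose values differ slightly from those of the fits by age, the difference was larger 24 h than 1 h after irradiation, by 1.02 ± 0.19 in larvae with FA and by 0.99 ± 0.19 in larvae without it. In that fit the 84 hpf difference less the 60 hpf one was 0.42 ± 0.19 with FA and -0.02 ± 0.19 without. With library totals alone, the fits by age gave 1.61 at 60 hpf and 1.55 at 84 hpf for FA + XR against FA. In these values the further growth with FA after 60 hpf depended on the scaling. The median of all genes moved by 0.28 between the scalings at 60 hpf and by -0.09 at 84 hpf in this comparison. Relative to that median, *ccng1* lay at 1.1998 with TMM and 1.28 with library totals at 60 hpf. At 84 hpf it lay at 1.66 and 1.63, so it was higher than at 60 hpf under both scalings. This growth relative to the median was not tested.

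*sesn3* differed less between irradiated and unirradiated larvae than *ccng1* did, most at 60 and 84 hpf, and its larvae varied more. At 37 hpf its median was 20.9 CPM (10.4 to 49.4) in FA + XR larvae, 20.1 CPM (12.5 to 34.4) in XR larvae, 19.2 CPM (12.9 to 24.4) in FA larvae and 22.9 CPM (10.2 to 37.0) in Cont larvae, with full overlap. At 60 hpf it was 37.6 CPM (27.7 to 42.1) in FA + XR larvae, 31.2 CPM (25.2 to 35.0) in XR larvae, 16.8 CPM (10.1 to 31.3) in FA larvae and 15.6 CPM (12.1 to 30.9) in Cont larvae. A single unirradiated larva of each group, at 31.3 CPM in FA and at 30.9 CPM in Cont, reached into the irradiated range.

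At 84 hpf *sesn3* had a median of 36.9 CPM (33.96 to 47.3) in FA + XR larvae, 39.2 CPM (28.5 to 64.2) in XR larvae, 30.5 CPM (14.7 to 42.5) in FA larvae and 25.4 CPM (15.4 to 31.9) in Cont larvae, and the groups overlapped. Once CPM was scaled by TMM factors, XR larvae (25.2 CPM or more) and Cont larvae (22.8 CPM or less) did not overlap. The log2 fold change in FA + XR against FA larvae was 0.10 ± 0.26 at 37 hpf, and it was 0.79 ± 0.21 at 60 hpf and 0.54 ± 0.17 at 84 hpf. In XR against Cont larvae it was -0.02 ± 0.27, 0.82 ± 0.22 and 0.68 ± 0.17. At 36 hpf these values were -0.04 ± 0.26 with FA and 0.32 ± 0.27 without.

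*plk3* did not follow the other 3 genes, and irradiated larvae did not stand apart from unirradiated ones in its level at any age. Its median at 60 hpf was 52.6 CPM (46.7 to 63.9) in FA + XR larvae, 54.3 CPM (45.9 to 68.8) in XR larvae, 50.5 CPM (37.6 to 54.7) in FA larvae and 53.1 CPM (47.3 to 57.001) in Cont larvae. At 84 hpf it was 54.4 CPM (46.4 to 62.5) in FA + XR larvae, 54.3 CPM (49.1 to 55.4) in XR larvae, 58.3 CPM (51.97 to 86.7) in FA larvae and 50.6 CPM (46.2 to 55.5) in Cont larvae. All groups overlapped at both ages.

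The log2 fold change of *plk3* in FA + XR against FA larvae was 0.05 ± 0.13 at 36 hpf, 0.14 ± 0.17 at 37 hpf, -0.17 ± 0.16 at 60 hpf and -0.05 ± 0.12 at 84 hpf. In XR against Cont larvae it was 0.17 ± 0.13, -0.04 ± 0.17, 0.06 ± 0.16 and 0.08 ± 0.12. The 95% intervals of the 60 hpf values, -0.49 to 0.15 with FA and -0.27 to 0.38 without, leave room for a difference of either sign. From library totals alone, the 60 hpf value with FA was 0.15. The median of all genes moved by 0.28 between the scalings in this comparison. Relative to that median, *plk3* lay at -0.23 with TMM and at -0.18 with library totals.

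**Figure D2:**
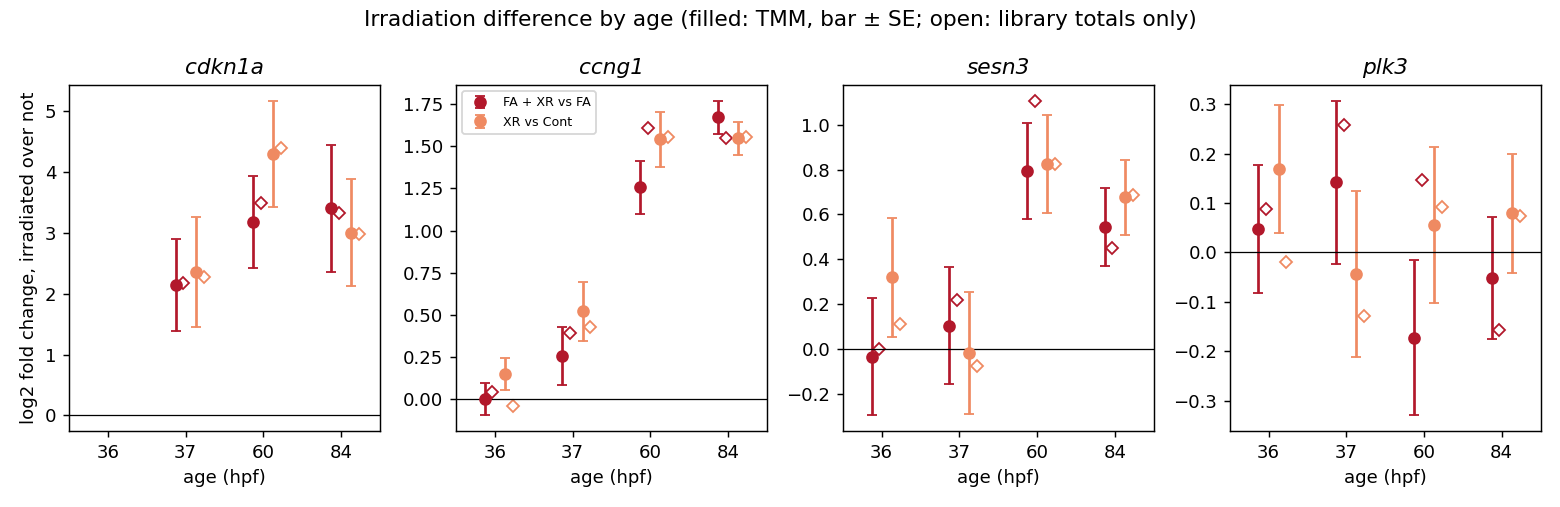
Log2 fold change of each gene between irradiated and unirradiated larvae by age, for FA + XR against FA and for XR against Cont (6 larvae each). Filled points use TMM with bars of ± SE, and open diamonds use library totals only. *ccng1* lay at 1.25 and 1.54 at 60 hpf and *plk3* at -0.17 and 0.06.

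As a description, the 4 genes were also counted among those that edgeR called at a false discovery rate of 10%. At 37 hpf none of them was in either irradiation contrast, where 0.118% of 14380 genes tested were called for FA + XR against FA and 0.104% for XR against Cont. With DESeq2, with library totals, without low libraries and without the FA + XR library of 243126 counts, *ccng1* was called for XR against Cont at this age. At 60 hpf, *cdkn1a*, *ccng1* and *sesn3* were called for FA + XR against FA, beside 1.43% of 16319 genes, and *cdkn1a* and *ccng1* for XR against Cont, beside 0.404%. At 84 hpf, edgeR called *ccng1* for FA + XR against FA, beside 1.04% of 16127 genes, and *cdkn1a*, *ccng1* and *sesn3* for XR against Cont, beside 1.69%. DESeq2 and the fit without low libraries also called *sesn3* for FA + XR against FA at 84 hpf. The share of all tested genes whose 12 irradiated and 12 unirradiated larvae did not overlap in CPM was 0.0556% at 37 hpf, when *ccng1* was among them, 0.147% at 60 hpf, when *cdkn1a* and *ccng1* were, and 0.329% at 84 hpf, when *ccng1* was. Because the same contrasts entered the choice of the genes, these calls are no evidence of a response. Some of them were also lost in fits that left out 1 library. Leaving out each of the 24 libraries of an age in turn, *sesn3* was called in 15 of 24 fits at 60 hpf for FA + XR against FA and *cdkn1a* in 12 of 24 fits at 84 hpf for XR against Cont.

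The comparison of FA + XR with XR larvae asked whether FA changed the level of the brakes after irradiation. It shares both its FA + XR and its XR libraries with the contrasts that entered the choice of the genes. No member was called at any age, beside 0% of all genes tested at 37 and 60 hpf, where edgeR gave 517 and 505 genes an unadjusted p under 0.05, and 0.0062% at 84 hpf. For *ccng1* the log2 fold change was -0.08 (95% interval -0.44 to 0.27) at 37 hpf, 0.10 (-0.22 to 0.42) at 60 hpf and 0.08 (-0.12 to 0.27) at 84 hpf. In means that was 1603 ± 89.998 CPM in FA + XR larvae against 1563 ± 114 CPM in XR larvae at 60 hpf, and 1240 ± 56.2 CPM against 1186 ± 122 CPM in the same order at 84 hpf (SD, n = 6 each).

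For *sesn3* the log2 fold change between FA + XR and XR larvae was 0.28 (-0.14 to 0.70) at 60 hpf, and in an exact two-sided permutation test of the mean log2 CPM, 6 against 6 larvae, p was 0.0844. At 37 and 84 hpf it was 0.03 (-0.51 to 0.58) and -0.04 (-0.38 to 0.29). For *plk3* the values were -0.04 (-0.37 to 0.30), -0.00 (-0.32 to 0.31) and 0.02 (-0.23 to 0.26) at 37, 60 and 84 hpf. For *cdkn1a* they were 0.44 (-1.02 to 1.91), -0.10 (-1.28 to 1.08) and -0.12 (-1.64 to 1.39), intervals that span more than a doubling in either direction. The edgeR adjusted p of *ccng1* at 84 hpf was 0.999, and those of the other values were as high. Adjusted over 32 such permutation tests, the p of 0.0844 of *sesn3* at 60 hpf became 0.900, so that it did not pass. With TMM-scaled CPM the permutation p of *sesn3* at 60 hpf was 0.0476, not adjusted for the number of tests.

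FA and Cont larvae, which were not irradiated, are the reference groups of the irradiation contrasts that entered the choice of the genes. Between FA and Cont larvae, again no member was called. Beside this stood 0% of all genes at 37 hpf (624 with an unadjusted edgeR p under 0.05), 1.45% at 60 hpf and 0.0248% at 84 hpf. The 60 hpf share depended on the scaling, with 237 genes called under TMM and 2 with library totals alone. The largest difference in relation to its error was that of *ccng1* at 60 hpf, 0.38 (0.07 to 0.70, edgeR adjusted p = 0.281). In CPM of the library totals, however, FA larvae (486 to 609 CPM) and Cont larvae (461 to 606 CPM) covered nearly the same range, and from library totals alone the log2 fold change was -0.02. The 2 scalings differ here for all genes. The median of all genes moved by -0.32 on the log2 scale between them in this comparison, and relative to that median *ccng1* lay at 0.43 with TMM and at 0.34 with library totals. DESeq2, with its own size factors, gave 0.43 and an adjusted p of 0.0456.

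*plk3* had 38.99 to 52.9 CPM with a median of 43.3 in FA larvae of 37 hpf, against 50.1 to 67.9 CPM with a median of 56.4 in Cont larvae. At 84 hpf the FA larvae had the higher range, 51.97 to 86.7 CPM against 46.2 to 55.5 CPM in Cont larvae. The exact permutation tests gave p = 0.00866 and p = 0.0216, of 32 such tests, with adjusted p values of 0.277 and 0.346, so that neither passed. With TMM-scaled CPM the p values were 0.229 and 0.0325. In the fit with TMM, the log2 fold changes were -0.22 (-0.55 to 0.11) and 0.15 (-0.10 to 0.40). For *sesn3* the fit gave 0.57 (0.03 to 1.11, edgeR adjusted p = 0.579) at 36 hpf, 1 h after FA was added, and between -0.09 and 0.31 at the later ages. For *cdkn1a*, with 15, 6 and 3 counts in FA larvae against 5, 2 and 7 in Cont larvae at 37, 60 and 84 hpf, no difference was detectable at this depth.

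**Figure D3:**
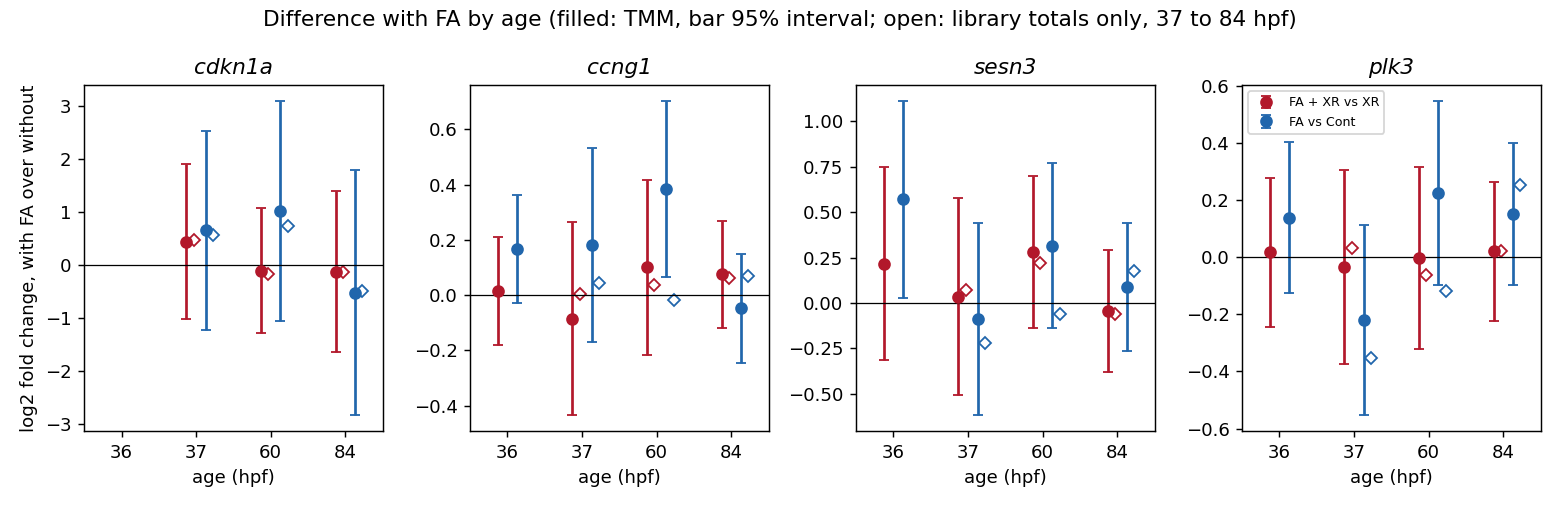
Log2 fold change with FA over without FA by age, in irradiated larvae (FA + XR against XR) and in unirradiated larvae (FA against Cont), 6 larvae each. Filled points use TMM with bars of the 95% interval, and open diamonds use library totals only, from 37 hpf on. The *ccng1* value of FA against Cont at 60 hpf was 0.38 with TMM and -0.02 with library totals.

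The interaction of FA and XR, the irradiation difference with FA less that without, was taken from the same fits. It is built from the irradiation contrasts that entered the choice of the genes, so nothing is read from its p values. None of the members was called, beside 0% of all genes at 37, 60 and 84 hpf, where edgeR gave 579, 1046 and 640 genes an unadjusted p under 0.05. For *ccng1* it was -0.27 (-0.76 to 0.23) at 37 hpf, -0.28 (-0.73 to 0.17) at 60 hpf and 0.12 (-0.15 to 0.40) at 84 hpf, with edgeR adjusted p values of 0.996, 0.856 and 0.997. For *cdkn1a* it was -1.12 (-3.46 to 1.21) at 60 hpf, and for *sesn3* -0.03 (-0.65 to 0.58).

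Age was compared in Cont larvae, in a fit of all 96 libraries. The Cont libraries also served in the irradiation contrasts that entered the choice of the genes. A batch of libraries made per age cannot be told apart from age here. Between 36 and 37 hpf none of the 4 genes was called, beside 0% of 15699 genes. From 37 to 60 hpf 30.8% of all genes were called, and among them *sesn3* fell by 0.76 ± 0.26 (SE, adjusted p = 0.0203) and *plk3* fell by 0.52 ± 0.13 (adjusted p = 0.00112). In CPM, *sesn3* had 18.004 ± 6.95 at 60 hpf against 22.7 ± 10.2 at 37 hpf, and *plk3* had 52.2 ± 3.65 against 57.7 ± 6.95 (SD, n = 6 each), ranges that overlapped. Both calls were lost with library totals alone, where the log2 changes were -0.34 and -0.13. The median of all genes moved by 0.43 between the scalings, and relative to it *sesn3* lay at -0.84 with TMM and -0.85 with totals, and *plk3* at -0.61 and -0.64. With TMM, the same step of *sesn3* was 0.31 ± 0.24 in FA + XR larvae, 0.07 ± 0.25 in XR larvae and -0.40 ± 0.25 in FA larvae. In CPM of library totals, its mean went from 24.6 to 36.1 in FA + XR larvae, from 22.4 to 30.8 in XR larvae and from 18.8 to 17.6 in FA larvae.

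From 60 to 84 hpf, when 7.2% of genes were called, *ccng1* fell by 0.46 ± 0.14 in Cont larvae (adjusted p = 0.0245), to 404 ± 35.3 CPM at 84 hpf against 532 ± 51.1 CPM at 60 hpf, and these ranges did not overlap. The same step was -0.50 ± 0.14 in FA + XR larvae, -0.48 ± 0.14 in XR larvae and -0.92 ± 0.14 in FA larvae. Means in CPM of library totals went from 1603 to 1240 in FA + XR larvae and from 1563 to 1186 in XR larvae. In FA larvae they went from 526 to 426, so the larger FA step under TMM did not show on that scale. The fall in CPM of irradiated larvae between 60 and 84 hpf thus had a counterpart in Cont larvae. From 37 to 60 hpf, by contrast, *ccng1* changed by 1.15 ± 0.14 in FA + XR larvae and 0.95 ± 0.14 in XR larvae, against 0.14 ± 0.14 in FA larvae and -0.04 ± 0.14 in Cont larvae. The sign of the Cont value depended on the scaling. With library totals it was 0.37 and was called (edgeR adjusted p = 0.000186), while the median of all genes moved by 0.43 between these scalings, and with RLE factors it was 0.05. *cdkn1a* was higher at 37 than at 36 hpf by 2.58 ± 0.83 in FA + XR larvae and 2.84 ± 0.91 in XR larvae, against 1.05 ± 1.00 in FA larvae and 0.88 ± 1.19 in Cont larvae.

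No paralogue of *ccng1*, *sesn3* or *plk3* was called higher in irradiated larvae. The list held no relatives of *cdkn1a*, which are given below with the CDK inhibitors, where *cdkn1b* was called higher in XR against Cont larvae. Of all genes, 0.104% to 1.69% were called in either direction in the irradiation contrasts at 37 to 84 hpf. Only 8 or 9 paralogues and partners were tested at an age, so nothing is read from their not being called higher. *ccng2*, which encodes the other cyclin G (ENSDARG00000017602), was lower in irradiated larvae where *ccng1* was higher. At 60 hpf it had 36.0 ± 3.59 CPM in FA + XR larvae and 31.8 ± 7.35 CPM in XR larvae, against 43.4 ± 11.4 CPM in FA larvae and 63.6 ± 13.5 CPM in Cont larvae (SD, n = 6 each). The log2 fold change in XR against Cont larvae was -0.99 ± 0.18 (SE, edgeR adjusted p = 0.00316) at 60 hpf and -0.55 ± 0.16 (adjusted p = 0.0791) at 84 hpf, and the 84 hpf call was lost with library totals, at the same size of change (-0.55, adjusted p = 0.118). In FA + XR against FA larvae it was -0.61 ± 0.18 (adjusted p = 0.11) and -0.49 ± 0.16 (adjusted p = 0.214), neither of which passed. For *sesn1* and *sesn2*, the other sestrins tested, XR against Cont larvae gave 0.22 ± 0.19 and -0.20 ± 0.41 at 60 hpf. For *plk1*, *plk2* and *plk4* it gave -0.02 ± 0.18, 0.30 ± 0.41 and 0.61 ± 0.43, and none of these genes was called. At 37 hpf *plk1* had 22.1 ± 11.3 CPM in FA + XR larvae and 23.2 ± 5.71 CPM in XR larvae. FA larvae had 50.7 ± 11.1 CPM and Cont larvae 42.9 ± 11.7 CPM (SD, n = 6 each). Its log2 fold change at that age was -1.05 ± 0.25 in FA + XR against FA larvae (SE, edgeR adjusted p = 0.116). In XR against Cont larvae it was -0.79 ± 0.26 (adjusted p = 0.826), and neither passed.

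**Figure D4:**
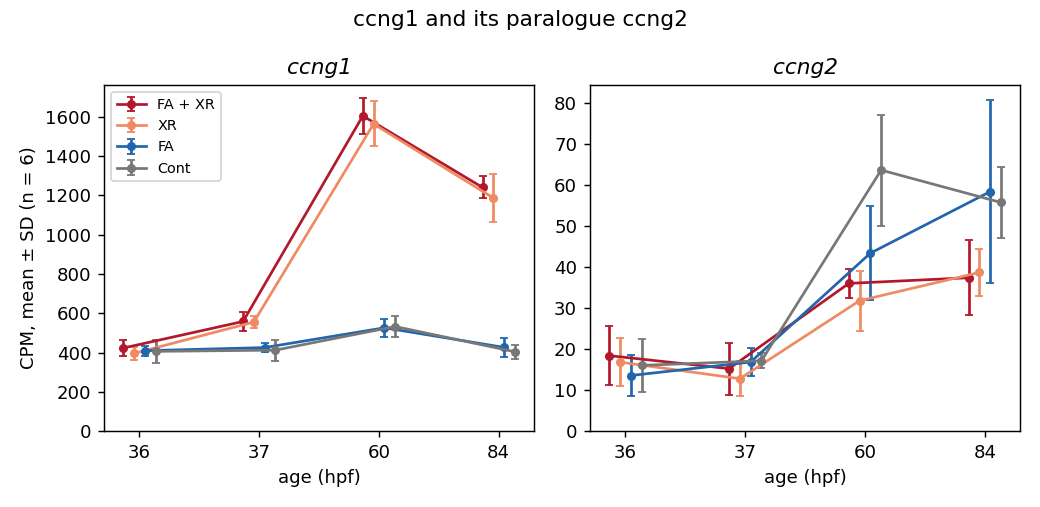
Mean level of *ccng1* and its paralogue *ccng2* by age and group, in CPM with bars of ± SD (n = 6), on linear axes from 0. At 60 hpf, XR larvae had 1563 CPM of *ccng1* and 31.8 CPM of *ccng2*, against 532 and 63.6 CPM in Cont larvae.

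Of the other genes of the p53 pathway, a list of 40 symbols gave 36 genes tested at 37 hpf and 37 at 60 and 84 hpf. The list was written with earlier results of these data known, so its counts are a description and no test of the pathway. It includes genes that the study reported as p53 targets raised in these larvae, such as *mdm2* and *phlda3*. At 37 hpf, 5 of 36 rose and none fell in FA + XR against FA larvae, beside 0.118% of all genes called in either direction. In XR against Cont larvae 6 rose and none fell, beside 0.104%. At 60 hpf 8 of 37 rose and 1 fell with FA, beside 1.43% of all genes, and 7 rose and 1 fell without, beside 0.404%. At 84 hpf 6 rose and none fell in each contrast, beside 1.04% of all genes with FA and 1.69% without. The median log2 fold change of the list at 60 hpf was 0.23 with FA and 0.03 without, beside 0.06 and -0.00 over all genes tested.

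The genes of this list that rose at 37 hpf in both contrasts were *phlda3*, which restrains Akt signalling in mammals, *mdm2*, *pik3r3a*, which encodes a regulatory subunit of phosphoinositide 3-kinase, *gadd45a*, a growth arrest gene, and *isg20*, which encodes an exonuclease. At 37 hpf in XR against Cont larvae, *phlda3* was higher by 2.19 ± 0.33, *mdm2* by 1.67 ± 0.23, *pik3r3a* by 1.32 ± 0.25, *gadd45a* by 2.04 ± 0.44 and *isg20* by 1.43 ± 0.23, beside the 0.52 ± 0.17 of *ccng1*. *rps27l*, which encodes a ribosomal protein paralogue, was higher by 1.21 ± 0.20. With library totals in FA + XR against FA larvae of 37 hpf, the call of *gadd45a* was lost (1.86, adjusted p = 0.12) and *rps27l* was called (0.80, adjusted p = 0.00156). The *gadd45a* values belong to ENSDARG00000043581, and the other ID of that name, ENSDARG00000104571, was not called with TMM.

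*casp8*, which encodes an initiator of apoptosis, rose at 60 hpf by 1.16 ± 0.25 on the log2 scale in FA + XR against FA larvae and by 1.03 ± 0.25 in XR against Cont larvae (SE, n = 6 each). The genes that fell at 60 hpf were *rps19*, which encodes a ribosomal protein, in FA + XR against FA larvae (-0.61 ± 0.18) and *gadd45g* in XR against Cont larvae (-1.20 ± 0.20). The call of *rps19* was lost with library totals (-0.24). The *gadd45g* value belongs to ENSDARG00000016725, and the other IDs of that name were not called with TMM.

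**Figure D5:**
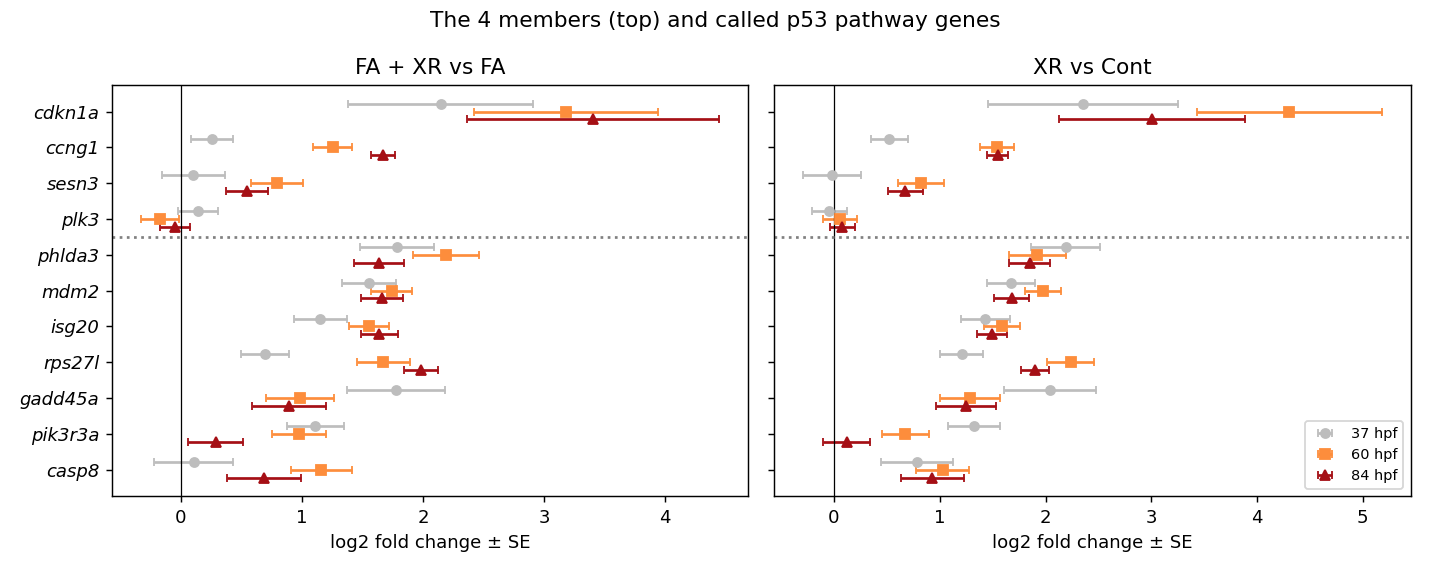
Log2 fold change ± SE at 37, 60 and 84 hpf for the 4 genes (above the dotted line) and for 7 genes of the p53 pathway list, in FA + XR against FA and in XR against Cont. The 7 genes were picked from those of the list that were called higher, so they do not show the list as a whole. The genes called lower at 60 hpf, *rps19* and *gadd45g*, are not drawn. At 37 hpf, *mdm2* lay at 1.55 and 1.67 and *ccng1* at 0.26 and 0.52.

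A list of other genes with CDK inhibitor symbols, *cdkn2aip* and *cdkn3* among those matched, gave 7 genes tested. Membership rests on the symbol and not on a known inhibitor function. At 60 hpf *cdkn1ca*, a p57 gene, fell by 0.65 ± 0.18 in FA + XR against FA larvae and by 0.76 ± 0.18 in XR against Cont larvae, and the call for FA + XR against FA was lost with library totals (-0.36). One of the IDs of *cdkn1b* (ENSDARG00000029018), which encodes p27, rose by 2.05 ± 0.49 in XR against Cont larvae and by 1.84 ± 0.49 in FA against Cont larvae, and both calls were lost with library totals, where the values were 2.13 and 1.63. No gene of this list was called by edgeR in a treatment contrast at 37 or 84 hpf, beside 0% to 1.69% of all genes.

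The pattern over the 16 group means, with the mean of each age subtracted, was alike in 3 of the 4 genes. Pearson's r was 0.95 for *cdkn1a* and *ccng1*, 0.91 for *ccng1* and *sesn3* and 0.87 for *cdkn1a* and *sesn3*, and 0.17, 0.17 and 0.38 for *plk3* with *cdkn1a*, *ccng1* and *sesn3*. The points share libraries and the scaling. With the age mean subtracted, much of the pattern of *cdkn1a*, *ccng1* and *sesn3* is the irradiation difference known when the genes were chosen. These values and the most alike genes are thus a description. Among the 12036 genes whose mean count reached 10, those most like *cdkn1a* were si:dkey-85n7.7 (0.99), si:dkey-40h20.1 (0.98) and *rps27l* (0.98). Those most like *ccng1* included *rps27l* (0.98) and *mmp2* (0.98), a matrix metalloproteinase gene. Those most like *sesn3* included *egfl6* (0.92) and *mmp2* (0.91), where r was 0.59 and 0.55 without the subtraction. For *plk3* they were ENSDARG00000111043 (0.93), si:ch73-74h11.1 (0.93) and *mtf1* (0.92), and these did not last under TMM, where r was 0.43, 0.72 and 0.40.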

How the data were processed

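Total RNA of single larvae was sequenced as 150-bp paired reads, and the authors quantified genes on GRCz11 cDNA sequences from Ensembl. The deposited table holds estimated counts (expected counts) per gene, of which 3 values were not whole and were rounded. The quantifier is not given in the sources used here. Columns were assigned to groups through the authors' library table, and they carry no replicate number.

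Levels are CPM of the library total, and log2 CPM used a prior count of 2 (0.5 as the alternative). The 24 libraries of an age were fitted together in edgeR 4.0.16 (R 4.3.3) with TMM factors and the quasi-likelihood test, for genes averaging 2.5 counts or more, at a false discovery rate of 10% by Benjamini-Hochberg. The study used the TCC package, which was not run here. SE is the size of the log2 fold change divided by the square root of F. The edgeR steps were tested on simulated data. The 4 genes and all lists were chosen with earlier results of these data known.

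Named genes are the 4 members, called genes of the lists, paralogues of the members and the 3 genes most like each member, and 1 gene that this rule names is not reported here. Symbols came from a reference table that matched 23608 IDs. Symbols not found were matched without their copy letter, so a name can cover more than 1 ID. Alternatives were RLE factors, DESeq2 1.42.0, no filter, only the 12 libraries compared, a threshold of 5%, leaving out low libraries or each library in turn and, added after the data were seen, library totals without TMM. Sequences and gene coordinates were not used here.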

Additional observations from a re-analysis of the deposited data

Results flagged for a closer look

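In 7 of 64 sets of 6 larvae, 1 larva stood apart by Dixon's criterion, which chance meets in about 1 of 20 sets of continuous values. That rate does not apply to the near-zero counts of *cdkn1a*, where a single larva with any count meets the criterion by construction. For *cdkn1a*, the highest XR larva of 36 hpf lay at 0.996 CPM (5 counts) where the other 5 had none. The highest Cont larva of 60 hpf lay at 0.638 CPM (1 count in a library of 1566669) beside 0 to 0.127 CPM in the others. The highest FA larva of 84 hpf lay at 0.835 CPM (3 counts) where the other 5 had none.

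For *ccng1*, the highest XR larva of 36 hpf lay at 462 CPM, beside 365 to 394 CPM in the others. The lowest XR larva of 37 hpf lay at 492 CPM in a library of 581706 counts, beside 560 to 588 CPM. For *plk3*, the highest FA larva of 36 hpf lay at 63.5 CPM, beside 45.001 to 50.9 CPM in the others. The highest FA + XR larva of 37 hpf lay at 82.3 CPM, from 20 counts in the library of 243126, beside 44.1 to 53.7 CPM.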

How the results depend on the processing

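No paired analysis was possible because no replicate number is given with the count columns. Low counts limit the values of *cdkn1a*. For the changes below the cause was not tested, beyond the shift of all genes between TMM and library totals given above.

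With library totals only (chosen after seeing the data), FA + XR against FA gave 0.39 at 37 hpf and 1.61 at 60 hpf for *ccng1* and 0.15 at 60 hpf for *plk3*. FA + XR against XR at 37 hpf gave 0.0040 for *ccng1* and 0.033 for *plk3*. FA against Cont at 60 hpf gave -0.017 for *ccng1*, -0.061 for *sesn3* and -0.12 for *plk3*, and at 84 hpf 0.068 for *ccng1*. In Cont larvae, *ccng1* gave 0.022 for 37 against 36 hpf and 0.37 for 60 against 37 hpf (called, edgeR adjusted p = 0.000186), where *sesn3* gave -0.34 and *plk3* -0.13, and 1 member was called in XR against Cont larvae at 37 hpf.

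Without low libraries, *plk3* in FA + XR against XR gave 0.036 at 37 hpf, 0.050 at 60 hpf and -0.018 at 84 hpf, and *sesn3* 0.021 at 84 hpf. In XR against Cont at 60 hpf *cdkn1a* gave 4.97 and *plk3* -0.12. In Cont larvae *ccng1* gave 0.027 for 37 against 36 hpf and 0.0036 for 60 against 37 hpf. Members called were 1 in XR against Cont at 37 hpf and 2 in FA + XR against FA at 84 hpf. For *plk3* in FA + XR against XR at 60 hpf, no filter gave 0.0036 and the 12 libraries alone 0.0028, and these 12 left 1 member called in FA + XR against FA at 60 hpf. For *ccng1* in Cont larvae, 60 against 37 hpf, no filter gave 0.043, RLE factors 0.053, the 24 Cont libraries 0.028 and DESeq2 0.051. DESeq2 gave *ccng1* 0.43 in FA against Cont at 60 hpf (called, 1 member), 1 member called in XR against Cont at 37 hpf and 2 in FA + XR against FA at 84 hpf.

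Leaving out each library in turn, FA + XR against XR ranged at 37 hpf from -0.17 to 0.046 for *ccng1*, -0.096 to 0.17 for *sesn3* and -0.070 to 0.047 for *plk3*, at 60 hpf from -0.27 to 0.099 for *cdkn1a* and -0.051 to 0.051 for *plk3*, and at 84 hpf from -0.56 to 0.14 for *cdkn1a*, -0.10 to 0.021 for *sesn3* and -0.019 to 0.063 for *plk3*. FA against Cont ranged from -0.25 to 0.070 for *sesn3* at 37 hpf, and at 84 hpf from -3.02 to 0.11 for *cdkn1a* and -0.0064 to 0.22 for *sesn3*. XR against Cont at 60 hpf ranged from 3.84 to 5.02 for *cdkn1a*. FA + XR against FA ranged from 2.89 to 3.71 for *cdkn1a* and 1.18 to 1.38 for *ccng1* at 60 hpf, and for *cdkn1a* at 84 hpf the range was 2.85 to 5.90. Members called ranged from 0 to 1 in XR against Cont at 37 hpf (1 without the FA + XR library of 243126 counts), and in FA + XR against FA 1 to 3 (60 hpf) and 1 to 2 (84 hpf).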

Other observations

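Of 29 cyclins, CDKs and E2F and RB factors tested at 37 hpf, *cks2*, which encodes a CDK subunit, fell in FA + XR against FA larvae (-1.25 ± 0.23) and in XR against Cont larvae (-1.44 ± 0.24), and *ccnb3*, a mitotic cyclin gene, fell in XR against Cont larvae (-1.34 ± 0.31, SE, n = 6 each). The *cks2* values belong to ENSDARG00000071410, and the other ID of that name, ENSDARG00000117089, was not called with TMM. At 60 hpf *rbl2*, a relative of the retinoblastoma gene, rose in FA + XR against FA larvae (1.33 ± 0.34). At 84 hpf *cdk1* rose in FA + XR against FA larvae (0.48 ± 0.13, a call lost with library totals) and *ccnd1*, which encodes cyclin D1, in XR against Cont larvae (0.51 ± 0.14). Of 21 TORC1 and GATOR genes, some of them partners of the sestrins, edgeR called none in any treatment contrast. Of all genes, 0% to 1.69% were called in these contrasts at 37 to 84 hpf, so that none of 21 says little. At 60 hpf the median log2 fold change of the 21 genes was 0.08 in FA + XR against FA larvae and -0.01 in XR against Cont larvae. Over all genes tested it was 0.06 and -0.00.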
